A study of Danio rerio with 10 samples.

Results

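Zebrafish embryos kept in 200 ppb thallium were compared with untreated embryos in 3 pairs of RNA-seq libraries. The pairs were formed by the replicate number in the sample titles: replicates 1, 2 and 3 at 200 ppb against replicates 1, 2 and 3 at 0 ppb, 6 of the 10 libraries of the series. Of the 32057 genes counted in every library, the 18887 with a mean of at least 1 CPM (counts per megaread of the library) over these 6 libraries were kept. They held about 99.8% of the reads of each library.

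All embryos were wild type and were sampled whole. The 200 ppb group was exposed to thallium nitrate (TlNO3) starting at 6 hours post fertilisation (hpf) and ending at 48 hpf, and the 0 ppb group went through the same hours without thallium. Strain, clutch and the number of embryos per library are not analysed here, and nothing in the labels ties each replicate to a clutch of its own. The p-values therefore reflect how these samples vary, which may be technical. The libraries of pair 1 were made at a hospital sequencing core and those of pairs 2 and 3 by a commercial provider. Library totals were 32.15, 16.61 and 15.62 megareads at 200 ppb in pairs 1, 2 and 3, against 48.34, 16.53 and 15.61 megareads at 0 ppb. The remaining 4 libraries, 2 at 800 ppb and replicates 4 and 5 at 0 ppb, shared no sample with the pairs and were used for a separate comparison.

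The thallium ion carries a single positive charge, is close to potassium in size, and is taken up by potassium channels and by the sodium-potassium pump. Like other metals with an affinity for thiol groups, it can disturb the folding of proteins. Unfolded proteins in the cytosol release heat shock factor, which switches on the genes of the HSP90 and HSP70 chaperones and their partners, while free metal ions act through a separate transcription factor on the metallothionein genes.

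Same-numbered libraries were far more alike than libraries of one dose. Genes with few reads in the 2 libraries compared were left out here. The mean chi-square per gene between the 200 and 0 ppb libraries of a pair was 4.87, 3.34 and 3.36 in pairs 1, 2 and 3. Between replicates 2 and 3 of the same dose it was 38.4 at 200 ppb and 42.4 at 0 ppb. It was 162 to 195 where replicate 1, deeper and from the other site, was compared with replicate 2 or 3. The doses were therefore compared within pairs. The spread of the log2 ratio of 200 over 0 ppb over all genes was 0.17 (SD) in the deeper pair 1, and 0.33 in each of pairs 2 and 3.

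The paired test called 1 gene higher at 200 ppb, HSP90AA1 (ENSDARG00000024746), the stress-inducible cytosolic HSP90. Its level was 81.9, 123.4 and 173 CPM at 200 ppb in pairs 1, 2 and 3, against 58.7, 93.9 and 128 CPM at 0 ppb. The ranges of the doses overlap, because pair 3 was high and pair 1 low at either dose, but the 200 ppb library was the higher one in 3 of 3 pairs. The mean was 126 ± 45.6 CPM at 200 ppb and 93.5 ± 34.6 CPM at 0 ppb (SD, n = 3 each). Log2 ratios within the pairs were 0.48, 0.39 and 0.44, and the paired fit gave a log2 fold change of 0.44 ± 0.05 (SE), 1.36-fold, with an adjusted p of 0.000605 (edgeR quasi-likelihood test with replicate as a block, Benjamini-Hochberg adjustment over all genes tested).

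Called genes made up 0.00529% of those tested on the higher side and 0% on the lower side. No gene was called lower by edgeR's paired test, and 260 had a lower level at an unadjusted p under 0.05, beside 341 with a higher one. Together these were 3.18% of the genes tested, fewer than such a threshold passes on average when no gene differs. DESeq2, limma-voom and edgeR with median-of-ratios scaling each called 2 genes, HSP90AA1 and hsp90aa1.1, and no gene lower. With pair 2 left out edgeR called 138 genes, 102 higher and 36 lower, with pair 1 left out 4 genes, and with pair 3 left out 1 gene, HSP90AA1 being among them each time. These fits reuse libraries of the main fit with fewer residual degrees of freedom, so they carry little weight as support. The calls without pair 2 took in hsp90aa1.1, hsp70.3, OPN1SW, CRYBB1, MATN1, EPAS1, selenop and HBE1 ENSDARG00000045143. DAO and ENSDARG00000087651, chosen after their values were seen, were called without pair 1, without pair 2 and with no filter on low counts. DAO was lower at 200 ppb in these settings, with log2 fold changes of -0.49, -0.34 and -0.34. The call of HSP90AA1 needs the pairing: without it the log2 fold change was 0.43 ± 0.37 with an adjusted p of 1. A fit of all 10 libraries that kept each pair as a block and set the other 4 libraries as a further block gave 0.43 ± 0.09 with an adjusted p of 0.9999.

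Shifts were small across the transcriptome. The median absolute log2 fold change was 0.07 and the median SE 0.11, and 2 genes went beyond 1 in either direction. Log2 ratios of different pairs were nearly unrelated across genes, with Pearson correlations of -0.05, 0.09 and -0.04 over the 18887 genes, which share the library of their pair.

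**Figure D1:**
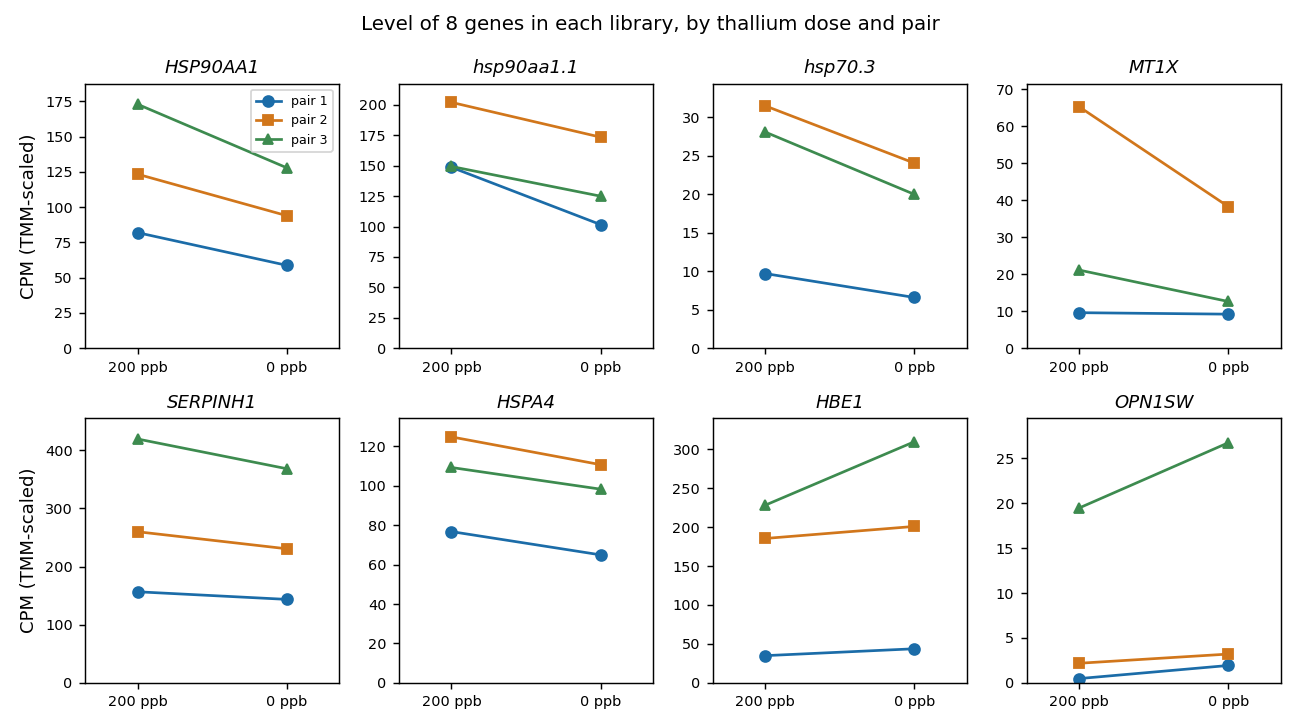
Level of 8 genes (CPM, TMM-scaled, linear axes from 0) in each of the 6 libraries, 200 ppb on the left and 0 ppb on the right of each panel, with lines joining the libraries of a pair. For HSP90AA1 all 3 lines slope down towards 0 ppb by a like proportion, from 173 against 128 CPM in pair 3 to 81.9 against 58.7 CPM in pair 1, whereas MT1X is nearly level in pair 1. The HBE1 panel is ENSDARG00000045143.

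Where several genes carry one symbol and no ID is given, values are those of the copy with the smallest p.

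The second cytosolic HSP90 alpha gene, hsp90aa1.1, which folds muscle myosin in zebrafish, had 149, 202 and 149 CPM at 200 ppb in pairs 1, 2 and 3, against 102, 174 and 125 CPM at 0 ppb. It was higher at 200 ppb in each pair, by log2 ratios of 0.55, 0.22 and 0.26. The fitted log2 fold change was 0.35 ± 0.06 with an adjusted p of 0.0729, so it was not called. The pair of HSP90 alpha genes are close in sequence and reads may be split between them. Summed to 1 row, they had 233, 324 and 319 CPM at 200 ppb, against 162, 266 and 251 CPM at 0 ppb, a log2 fold change of 0.39 ± 0.05 with an adjusted p of 0.00249. Like the other sums over gene copies, this sum was not planned. It holds the called gene, so it adds no support of its own.

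The constitutive HSP90 genes, chosen here after their values were seen, showed no such shift. HSP90AB1, the constitutive cytosolic form, had a log2 fold change of 0.03 ± 0.06, and HSP90B1, the form of the endoplasmic reticulum, 0.03 ± 0.04. Of the 25 measured genes for HSP90 chaperones and their co-chaperones, 22 had a fitted log2 fold change above 0 and the median was 0.08, beside 0.00 for all genes tested. HSP90AA1 was the 1 member called, and this list, like the others, was chosen with earlier results of these data known. Counting pairs, 9 of the 25 (36%) were higher at 200 ppb in all 3 and 0 were lower in all 3, where 12.4% and 11.8% of all genes tested were. The median of the list lay above 0 in every pair, at 0.04, 0.11 and 0.06, and the fitted median was 0.04 with pair 2 left out and 0.12 with a site term over all 10 libraries in place of the block. FKBP5, a co-chaperone of steroid hormone receptors, had the next smallest p of the list with a log2 fold change of 0.24 ± 0.09, but its ratios of 0.20, -0.02 and 0.73 in pairs 1, 2 and 3 were uneven.

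Among HSP70 genes the inducible hsp70.3 had the smallest p. Its level was 9.70, 31.5 and 28.1 CPM at 200 ppb in pairs 1, 2 and 3, against 6.58, 24.1 and 19.99 CPM at 0 ppb. Each 200 ppb library lay above its partner, and the doses overlap because both libraries of pair 1 were low. The log2 ratios of 0.55, 0.39 and 0.49 gave a fitted log2 fold change of 0.48 ± 0.09 (1.39-fold), with an adjusted p of 0.201. Its copy hsp70.1 was scarce, with 0.838, 3.85 and 1.66 CPM at 200 ppb against 0.553, 2.82 and 0.482 CPM at 0 ppb, and hsp70l had ratios of 0.48, -0.24 and 0.30 that differed in sign. How reads were shared among these 3 inducible genes was not tested. Summed, they had a log2 fold change of 0.40 ± 0.08 with an adjusted p of 0.499.

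HSPA4, a nucleotide exchange factor of the HSP110 family (the copy ENSDARG00000004754), had 76.8, 125 and 109 CPM at 200 ppb, against 64.9, 111 and 98.3 CPM at 0 ppb. All 3 pairs were higher at 200 ppb, by log2 ratios of 0.24, 0.17 and 0.15. HSPA9, the mitochondrial HSP70, followed with a log2 fold change of 0.12 ± 0.05 and ratios of 0.12, 0.10 and 0.14. Neither passed the adjustment (adjusted p = 0.9999 for HSPA4). HSPA8 ENSDARG00000068992, the abundant constitutive HSP70, and HSPA5, its counterpart in the endoplasmic reticulum (like hsp70.1, both picked with their values in view), had log2 fold changes of -0.00 ± 0.06 and 0.04 ± 0.04. A second gene with the symbol HSPA8 (ENSDARG00000037403), which is scarce, had 2.54, 4.24 and 5.85 CPM at 200 ppb, against 1.75, 3.59 and 3.93 CPM at 0 ppb, a log2 fold change of 0.46 ± 0.20. In the list of 27 HSP70 chaperones and partners, 19 lay above 0 and the median was 0.03, with 8 genes higher and 3 lower in all 3 pairs.

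**Figure D2:**
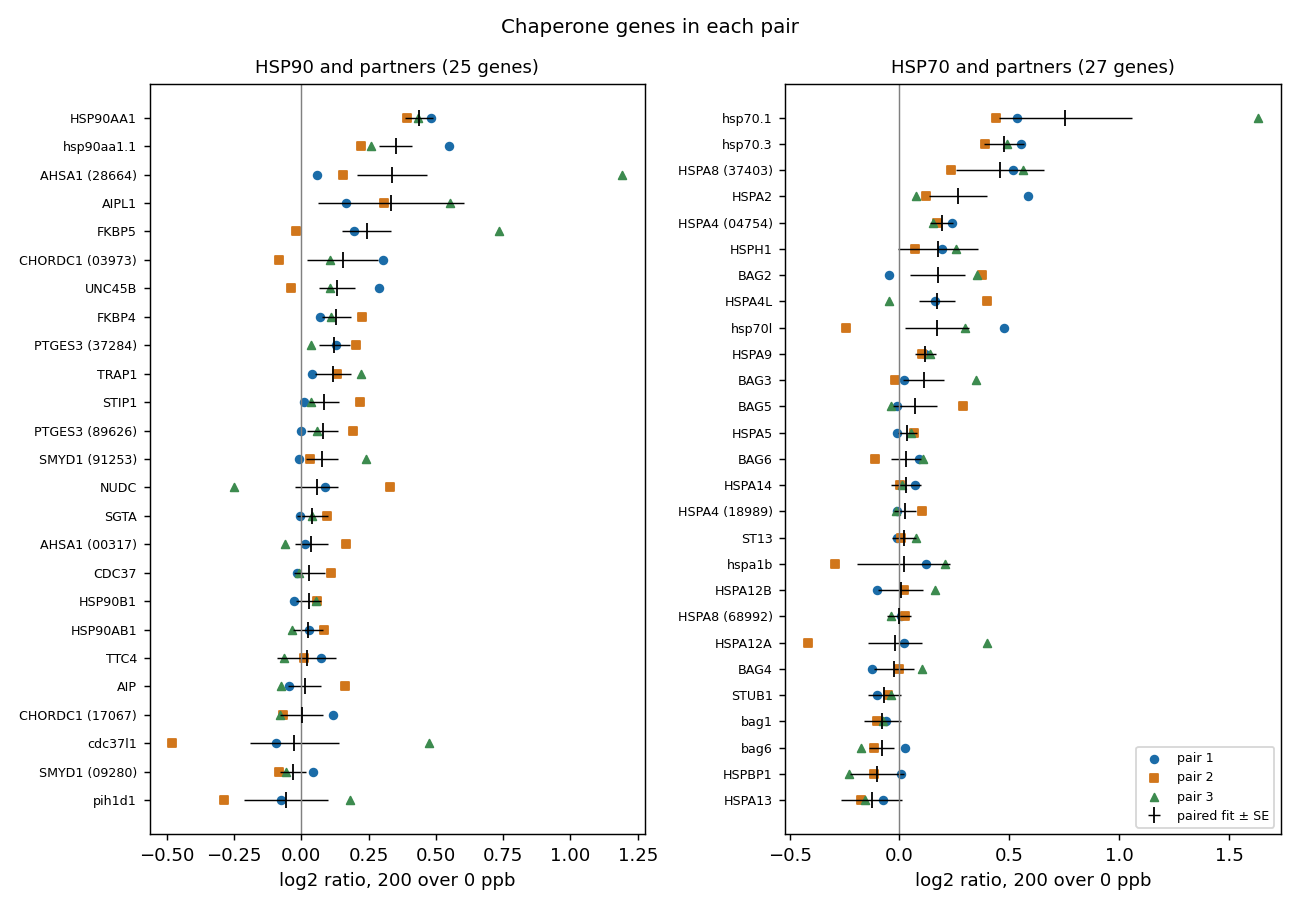
Log2 ratio of 200 over 0 ppb for the 25 measured HSP90 genes and partners (left) and the 27 HSP70 genes and partners (right), with a coloured point for each pair and a black tick with its SE for the paired fit. Numbers in brackets are the last digits of the gene ID where a symbol is used by several genes. HSP90AA1 and hsp70.3 have 3 points close together and away from 0, and 22 of the 25 ticks on the left lie above 0.

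The other chaperone classes had smaller log2 fold changes. SERPINH1 (ENSDARG00000019949), the collagen chaperone HSP47, had 157, 260 and 419 CPM at 200 ppb in pairs 1, 2 and 3, against 144, 231 and 368 CPM at 0 ppb. Ratios of 0.13, 0.17 and 0.19 put each 200 ppb library above its partner, at a fitted 0.16 ± 0.05 that was not called. HSPD1, the mitochondrial chaperonin, had ratios of 0.11, 0.11 and 0.12, and PFDN2, a prefoldin subunit, had 0.10, 0.14 and 0.22. Of the 20 chaperonins, prefoldins and heat shock factors measured, 15 lay above 0, with a median of 0.03, 5 higher in all 3 pairs and 1 lower. With pair 2 left out the median was 0.0014.

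J-domain co-chaperones, which hand substrates to HSP70, had 26 of 39 genes above 0 and a median of 0.04. Of these, 7 were higher in all 3 pairs and 1 was lower. The type I protein dnaja1 had a log2 fold change of 0.16 ± 0.07 and dnajb1a, a heat-inducible type II protein, 0.20 ± 0.10, while DNAJB12, which sits in the membrane of the endoplasmic reticulum, had -0.21 ± 0.09. The median of this list differed between pairs, at -0.03, 0.12 and 0.02 in pairs 1, 2 and 3, and was -0.01 with pair 2 left out. Small heat shock proteins showed no common direction, with 4 of 9 genes above 0, a median of -0.00, and hspb9 at -0.23 ± 0.12, hspb6 at 0.22 ± 0.14 and HSPB2 at -0.22 ± 0.17. Levels of hspb9 also differed between pairs. They were 0.0559 CPM at 200 ppb and 0.0553 CPM at 0 ppb in pair 1, against at least 18.5 CPM in each of the 4 libraries of pairs 2 and 3. The hospital core made pair 1 only, so site and pair cannot be told apart.

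Metallothioneins bind metal ions through cysteine. The gene listed as MT1X (ENSDARG00000041623) had 9.59, 65.3 and 21.1 CPM at 200 ppb in pairs 1, 2 and 3, against 9.19, 38.3 and 12.6 CPM at 0 ppb. Pairs 2 and 3 differed by log2 ratios of 0.77 and 0.74, and pair 1 by 0.06. The paired fit gave 0.53 ± 0.11 with an adjusted p of 0.307. With pair 1 left out it was 0.76 with an adjusted p of 4.2e-07. That fit drops the pair with the smallest ratio and rests on pairs 2 and 3 alone, so it adds no support. Since pair 1 was also the hospital core's, site and pair cannot be told apart here. The other 37 measured genes of metal handling had no common direction, and the whole list of 38 had 19 on either side of 0 and a median of 0.00. SLC30A8, a zinc transporter of secretory granules, had 0.19 ± 0.09, and fth1a, a ferritin heavy chain, 0.08 ± 0.04.

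Genes of the ATF4 pathway supply amino acids and their transfer RNA ligases when translation is restrained. The stress sensor sesn2 had 6.43, 11.8 and 7.31 CPM at 200 ppb, against 5.39, 8.72 and 5.24 CPM at 0 ppb, with ratios of 0.25, 0.43 and 0.47. ASNS, asparagine synthetase, had 36.6, 38.4 and 33.6 CPM at 200 ppb, against 34.1, 32.6 and 28.1 CPM at 0 ppb. Its ratios of 0.10, 0.23 and 0.26 were all above 0, as were those of NARS1, the asparagine transfer RNA ligase, at 0.03, 0.14 and 0.46. None was called. Across the 53 measured genes of this list 32 lay above 0, with 10 higher and 4 lower in all 3 pairs, and the median was 0.01, with pair medians of 0.04, -0.00 and -0.02.

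Genes of glutathione and thioredoxin metabolism, which buffer thiols, were evenly split, 27 above and 27 below 0. The members with the smallest p were gsta.1, a glutathione transferase, at 0.23 ± 0.11, GSS, glutathione synthetase, at 0.27 ± 0.14, and SRXN1, sulfiredoxin, at 0.46 ± 0.27. For gsta.1 the value came from pair 2, whose ratio was 0.68, beside -0.04 and 0.08 in pairs 1 and 3, and the reads recovered from the log2 table gave -0.02. Selenoproteins had 10 of 24 genes above 0 and a median of -0.03. The plasma selenium carrier selenop had 569, 997 and 767 CPM at 200 ppb, against 639, 1045 and 867 CPM at 0 ppb. Each 200 ppb library was below its partner, by log2 ratios of -0.17, -0.07 and -0.18, and the fitted -0.14 ± 0.05 was not called. DIO1, a thyroid hormone deiodinase, had 0.37 ± 0.26 and selenow1 had -0.07 ± 0.05.

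Potassium channel genes were listed because the thallium ion passes through the channels, though all lists were chosen with earlier results of these data known. Of 83 measured, 49 had a log2 fold change above 0 and the median was 0.04, and 19 (22.9%) were higher and 8 (9.64%) lower in all 3 pairs. The pair medians were 0.08, -0.01 and 0.11, with pair 2 on the other side of 0. Members with the smallest p went in different directions: KCNC1, a fast delayed rectifier of neurons, had 33.2, 26.8 and 37.1 CPM at 200 ppb, against 37.6, 29.8 and 40.9 CPM at 0 ppb, a log2 fold change of -0.16 ± 0.07. KCNF1, a modulatory subunit, had 0.42 ± 0.20 and KCNT1, a sodium-activated channel, 0.45 ± 0.24. Of 37 genes for the sodium-potassium pump and potassium cotransport, 22 lay above 0 with a median of 0.02. In this list fxyd5, a regulator of the pump, was at 0.67 ± 0.28, slc12a10.2, a cotransporter of fish ionocytes, at 0.21 ± 0.11, and the pump subunit atp1a1a.4 at 0.09 ± 0.05.

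In the blood lineage, 27 of 39 genes for embryonic globins and haem synthesis lay below 0 and the median was -0.03, with 9 lower and 5 higher in all 3 pairs. One beta globin gene with the symbol HBE1 (ENSDARG00000045143) had 34.9, 185 and 228 CPM at 200 ppb in pairs 1, 2 and 3, against 43.8, 201 and 310 CPM at 0 ppb. It was lower at 200 ppb in each pair, by log2 ratios of -0.32, -0.12 and -0.44, and the fitted -0.29 ± 0.06 had an adjusted p of 0.262. Several genes carry this symbol, and how reads were shared among them was not tested. ENSDARG00000115405 had -0.18 ± 0.07, which turned to 0.79 with the reads recovered from the authors' log2 table, and the more abundant ENSDARG00000113599 and ENSDARG00000087390, chosen after their values were seen, had -0.07 ± 0.05 and -0.04 ± 0.05. Summed over 7 genes, HBE1 had a log2 fold change of -0.09 ± 0.05 with an adjusted p of 0.9997. The erythroid transcription factor gata1a had 3.41, 2.57 and 2.52 CPM at 200 ppb, against 4.24, 3.46 and 4.34 CPM at 0 ppb. Here all 200 ppb values lay below all 0 ppb values, and the fitted -0.47 ± 0.20 was not called. Of all 18887 genes tested, 92 were lower without overlap and 91 higher. In whole embryos, fewer cells of a type and less RNA per cell cannot be told apart.

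Hypoxia-inducible factors and their targets had 17 of 41 genes above 0. EPAS1, the factor HIF-2 alpha, had 143, 116 and 124 CPM at 200 ppb, against 122, 116 and 100 CPM at 0 ppb, with no difference in pair 2 (ratio -0.00) and 0.23 and 0.30 in pairs 1 and 3. PFKFB4, a regulator of glycolysis, had 0.19 ± 0.07, and BNIP3L, a mitophagy receptor, -0.18 ± 0.06.

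Among the lists below 0, cytosolic ribosomal proteins were the most one-sided. Of 81 measured genes, 75 had a log2 fold change below 0, 21 (25.9%) were lower in all 3 pairs and 0 were higher in all 3, and the median was -0.06. Pairs differed in direction, with medians of -0.09 and -0.12 in pairs 1 and 3 and 0.05 in pair 2, and with a site term over all 10 libraries in place of the block the median was 0.05. RPL35 was even, at -0.08, -0.11 and -0.10, as was RPS12 at -0.18, -0.10 and -0.13, while RPS19 had 0.04 in pair 2 and -0.18 and -0.26 in pairs 1 and 3. The members together made up 26451, 83125 and 71055 CPM at 200 ppb in pairs 1, 2 and 3, against 28062, 81011 and 77178 CPM at 0 ppb, and the libraries of pair 1 stood well below the rest at either dose. None of these genes was called.

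Markers of some tissues had more members below 0 than all genes, which were split 9539 above and 9348 below. For cartilage and bone, 34 of 44 measured genes lay below 0, 17 (38.6%) were lower and 2 higher in all 3 pairs, and the median was -0.07, with -0.07, -0.02 and -0.10 in the single pairs. The type IX collagen col9a1b had 415, 410 and 444 CPM at 200 ppb, against 468, 428 and 518 CPM at 0 ppb, with ratios of -0.17, -0.06 and -0.22. MATN1, a cartilage matrix protein, had 17.1, 72.8 and 75.0 CPM at 200 ppb, against 28.0, 67.7 and 87.1 CPM at 0 ppb, and pair 2 went the other way. col9a3 had -0.11 ± 0.05. In the notochord and floor plate list 10 of 27 genes (37%) were lower and 2 higher in all 3 pairs, with a median of -0.06. There epyc, a small proteoglycan, had -0.12 ± 0.05, COL9A2 -0.10 ± 0.05 and the scarce sheath collagen COL8A1 -0.65 ± 0.31. The mean of COL8A1 was 0.912 CPM at 200 ppb and 1.53 CPM at 0 ppb, so it passed the filter only through the 0 ppb libraries. The entries epyc, col9a2 and matn3b are also in the cartilage and bone list, so these lists are not separate evidence.

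Photoreceptor genes are switched on near the end of this exposure. In this list 28 of 36 genes lay below 0, 9 (25%) were lower and 2 higher in all 3 pairs, and the median was -0.12, with -0.25, 0.04 and -0.08 in pairs 1, 2 and 3. The short-wave cone opsin OPN1SW (ENSDARG00000045677) had 0.475, 2.18 and 19.5 CPM at 200 ppb, against 1.94, 3.21 and 26.7 CPM at 0 ppb. Each pair was lower at 200 ppb, by log2 ratios of -1.86, -0.54 and -0.46, with 17 reads at 200 ppb against 105 at 0 ppb behind pair 1. The fitted value was -0.78 ± 0.20, with an unadjusted p of 0.000883 and no call. nrl, the rod fate factor, had 1.93, 1.60 and 1.46 CPM at 200 ppb, against 2.45, 3.72 and 2.14 CPM at 0 ppb, and GNGT2, a cone transducin subunit, had -0.61 ± 0.24. The opsin differed more between pairs than within any pair.

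Lens genes had 31 of 49 below 0 but disagreed between pairs, with medians of -0.01, 0.10 and -0.12, and their fitted median of -0.05 was 0.04 with pair 3 left out and 0.12 with the site term. The crystallin CRYBB1 had ratios of -0.28, 0.10 and -0.68, cryba1b -0.08, 0.04 and -0.42, and crygm2d4 0.40, 0.01 and 0.07. Skin and keratin genes had 32 of 40 below 0, 11 (27.5%) lower and 1 higher in all 3 pairs, and a median of -0.05, which was 0.02 with the site term. Its member krt94, an epidermal keratin, had 26.2, 49.4 and 34.4 CPM at 200 ppb, against 31.4, 57.2 and 38.3 CPM at 0 ppb, with ratios of -0.26, -0.21 and -0.15. KRT222 had -0.25 ± 0.11 and krt18a.1 -0.09 ± 0.05. Glia, myelin and Notch target genes had 39 of 54 below 0 and a median of -0.04, with 12 (22.2%) lower and 2 higher in all 3 pairs. GFAP, the intermediate filament of radial glia, had 240, 293 and 267 CPM at 200 ppb, against 258, 310 and 302 CPM at 0 ppb, and her4.2, a Notch target, had -0.23 ± 0.09. SLC1A3, a glial glutamate transporter, went the other way with 46.4, 55.9 and 49.4 CPM at 200 ppb, against 40.5, 45.8 and 45.7 CPM at 0 ppb. No gene of these marker lists was called.

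Of the 46 lists described by their medians, 20 had a median above 0 and 26 below, all within 0.12 of 0. Single pairs weighed on several: with pair 1 left out the median was 0.01 for potassium channels, -0.05 for photoreceptors and -0.02 for notochord and floor plate, and with pair 2 left out it was -0.20 for photoreceptors and -0.11 for cytosolic ribosomal proteins.

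**Figure D3:**
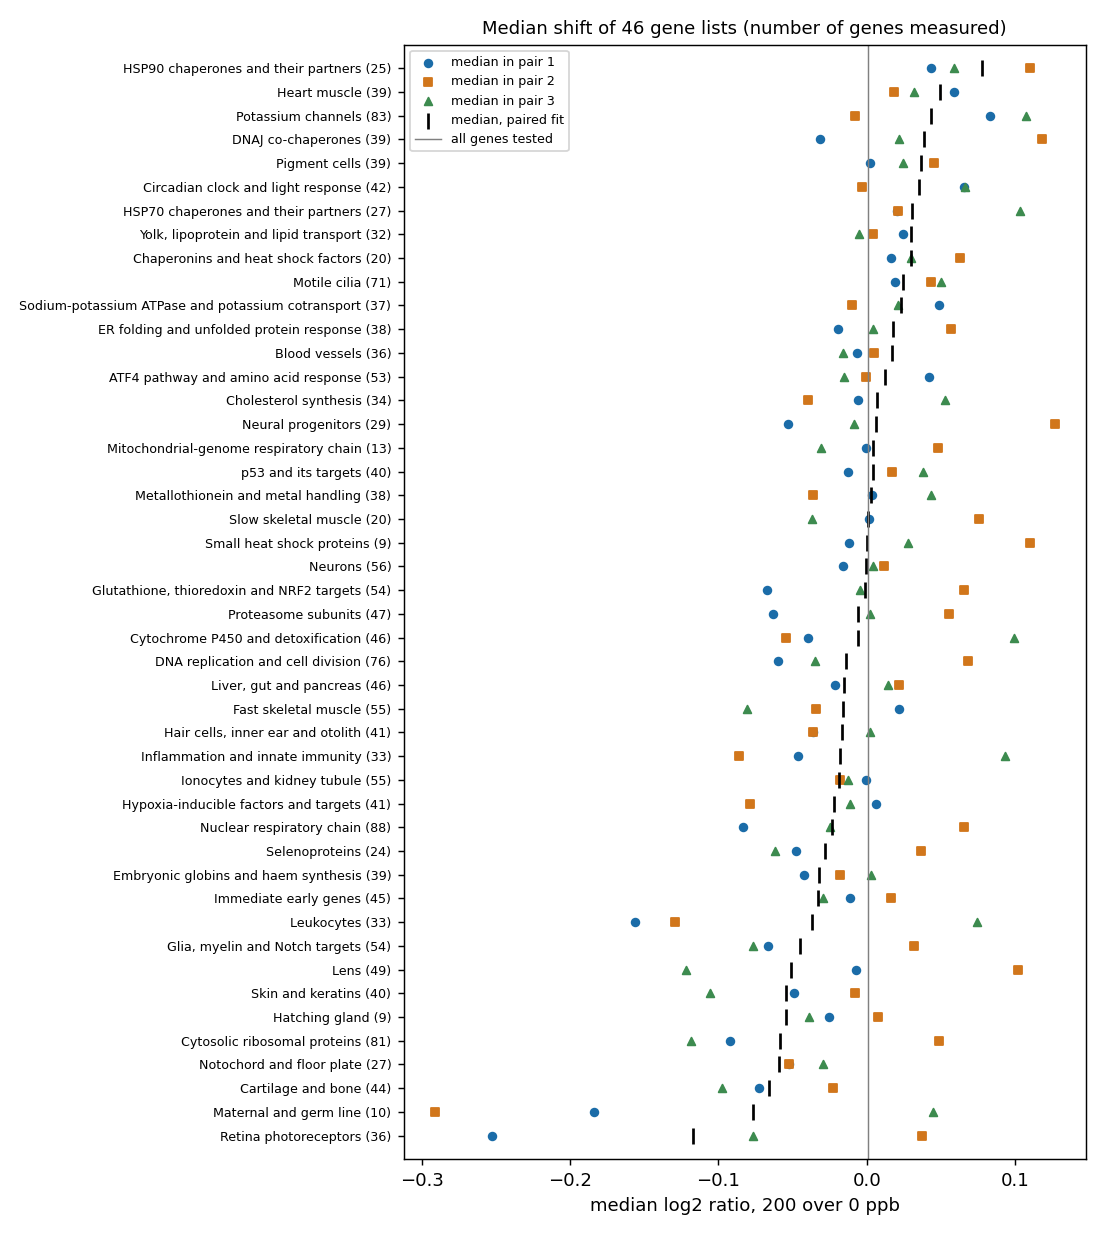
Median log2 ratio of 200 over 0 ppb for 46 gene lists, with a coloured point for each pair, a black tick for the paired fit and a grey line for all genes tested; the number of measured genes follows each name. The HSP90 list is at the top with all 3 pair medians above 0 (0.04, 0.11 and 0.06), and the photoreceptor list at the bottom with a median of -0.12, while the points of most lists spread to both sides of 0.

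Regardless of any test, a shift was counted as consistent when the log2 ratio was beyond 0.2 on the same side in all 3 pairs. On the higher side 153 genes did so (0.81% of those tested) and on the lower side 142 (0.752%). Of these, 146 of the 153 and 138 of the 142 had a mean level under 10 CPM, against 7647 of the 18887 genes tested. Their median level was 2.64 CPM on the higher and 2.1 CPM on the lower side, against 14.2 CPM over all genes tested. With a mean of at least 5 CPM required, 62 genes were left, 62.9% of them on the higher side, against 51.9% of all 295. With a minimum shift of 0.3 the share on the higher side was 44.8% of 105 genes, and with pair 3 left out 48.0% of 861. Apart from HSP90AA1, none of these genes was called.

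The consistent genes with the smallest p on the higher side were the chaperones HSP90AA1, hsp90aa1.1 and hsp70.3. They were followed by leap2, an antimicrobial peptide gene of the liver, with 3.47, 16.0 and 4.78 CPM at 200 ppb, against 1.55, 12.7 and 3.03 CPM at 0 ppb, a log2 fold change of 0.67 ± 0.17. SOBP, a nuclear protein of the developing ear and eye field, had 13.4, 10.9 and 8.17 CPM at 200 ppb, against 10.05, 8.08 and 5.93 CPM at 0 ppb. Its log2 ratios of 0.41, 0.43 and 0.46 lay close together. The lipocalin lcn15 had 0.59 ± 0.17, and GRIN2B, a subunit of the NMDA glutamate receptor, had 20.1, 13.7 and 5.71 CPM at 200 ppb, against 15.7, 9.75 and 4.76 CPM at 0 ppb.

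The ciliary dynein dnah9 had 1.82, 1.16 and 1.66 CPM at 200 ppb, against 1.07, 0.449 and 0.620 CPM at 0 ppb, a log2 fold change of 1.03 ± 0.31. Its 200 ppb values all lay above its 0 ppb values, as did those of amn, a partner of the endocytic receptor cubilin, with 1.23, 1.67 and 1.66 CPM at 200 ppb, against 0.646, 0.898 and 0.827 CPM at 0 ppb. The hydrolase ABHD8 had 2.29, 2.57 and 2.59 CPM at 200 ppb, against 1.77, 1.41 and 0.758 CPM at 0 ppb, and did not overlap either. At 0 ppb the mean was 0.713 CPM for dnah9 and 0.790 CPM for amn. Both genes therefore passed the filter of 1 CPM only through their 200 ppb libraries, and dnah9 had 7 and 9 reads at 0 ppb in pairs 2 and 3. As the genes named here were picked for a shift in every pair and a small p, their lack of overlap adds no support. Of all 18887 genes tested, 91 were higher without overlap and 92 lower. lyrm1 had 0.73 ± 0.25. A gene for pyridoxal kinase, PDXK (ENSDARG00000036546), had 4.5, 8.79 and 5.32 CPM at 200 ppb, against 3.82, 5.64 and 3.17 CPM at 0 ppb.

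A second copy of PDXK (ENSDARG00000088959) was on the lower side, with 6.04, 3.40 and 3.72 CPM at 200 ppb, against 8.30, 4.43 and 4.96 CPM at 0 ppb. Both copies together had 10.5, 12.2 and 9.04 CPM at 200 ppb, against 12.1, 10.07 and 8.13 CPM at 0 ppb, lower in pair 1 and higher in pairs 2 and 3, and how their reads were shared out is not given in the sources used here.

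On the lower side OPN1SW had the smallest p. It was followed by an EEF1A1 copy (ENSDARG00000069951), a translation elongation factor, with 3.05, 5.20 and 5.71 CPM at 200 ppb, against 3.85, 8.85 and 9.31 CPM at 0 ppb, a log2 fold change of -0.59 ± 0.16. TEX264, a receptor for autophagy of the endoplasmic reticulum, had ratios of -0.27, -0.24 and -0.30. CRH, the hypothalamic corticotropin-releasing hormone, had 0.531, 0.834 and 1.86 CPM at 200 ppb, against 0.922, 2.57 and 2.41 CPM at 0 ppb. SOAT2, which esterifies cholesterol, had 7.38, 10.5 and 3.39 CPM at 200 ppb, against 8.76, 16.0 and 4.07 CPM at 0 ppb, a log2 fold change of -0.38 ± 0.13.

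The other genes of this group were OLIG3, a transcription factor of the dorsal neural tube, at -0.32 ± 0.11, the habenular receptor GPR151 at -0.81 ± 0.29, TNFAIP8L3 at -0.45 ± 0.16 and ccdc178 at -0.91 ± 0.33. The mean of ccdc178 was 0.877 CPM at 200 ppb and 1.81 CPM at 0 ppb, so it passed the filter of 1 CPM only through the 0 ppb libraries. Its ratios were -0.22, -1.97 and -1.38, with 7 and 8 reads at 200 ppb in pairs 2 and 3. TNFAIP8L3 had 4.83, 3.40 and 4.65 CPM at 200 ppb, against 5.79, 4.88 and 7.44 CPM at 0 ppb, with no overlap. It was 1 of the 92 such genes on the lower side, and had been picked for a shift in every pair and a small p. The kinase pkmyt1, which holds back entry into mitosis, had -0.35 ± 0.13, and cishb, a feedback inhibitor of cytokine signalling, -0.59 ± 0.22.

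The 4 libraries outside the pairs gave the direction of these genes at a higher dose in samples that the pairs did not use. With 2 libraries at 800 ppb against replicates 4 and 5 at 0 ppb, edgeR's quasi-likelihood test called 19 genes higher (0.101% of those tested) and 4 lower (0.0212%). This fit held dose only, with no pairing of the 4 libraries. A likeness between single libraries of both doses is then counted as error. The gene actc1c, picked with its values in view, is an example. It had 54.9 and 151 CPM in 800 ppb replicates 1 and 2. At 0 ppb it had 62.8 and 178 CPM in replicates 4 and 5. Libraries outside the pairs were scaled on their own, so levels are compared within that set. HSP90AA1 had 393 and 303 CPM at 800 ppb, against 82.5 and 91.4 CPM at 0 ppb, a log2 fold change of 2.0 ± 0.12 with an adjusted p of 0.000174. hsp70.3 had 118 and 51.8 CPM at 800 ppb, against 8.21 and 14.1 CPM at 0 ppb (log2 fold change 2.93 ± 0.35, adjusted p = 0.0151). MT1X had 94.5 and 71.8 CPM at 800 ppb, against 25.6 and 19.3 CPM at 0 ppb (1.89 ± 0.16, adjusted p = 0.00157). hsp90aa1.1 was not called there, with 195 and 220 CPM at 800 ppb, against 162 and 131 CPM at 0 ppb.

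Of the 19 genes called higher at 800 ppb, 17 had a log2 fold change above 0 at 200 ppb and 14 (73.7%) were higher in all 3 pairs. Among all 9464 genes above 0 at 800 ppb, 5059 were above 0 at 200 ppb and 1302 were higher in all 3 pairs. None of the 19 was lower in all 3 pairs, and 3 of them (HSP90AA1, hsp70.3 and HSPA8 ENSDARG00000037403) were above 0.2 in each. Their median log2 fold change at 200 ppb was 0.17, with a range of -0.05 to 0.53, beside 1.0 at 800 ppb. The group held SERPINH1, HSPA4, hsp70l and the J-domain gene dnajb1b (0.19 ± 0.10 at 200 ppb) among chaperones. From amino acid synthesis and transport it held ASNS and NARS1, PHGDH (0.09 ± 0.06) and PSAT1 (0.11 ± 0.06) of serine synthesis, the mitochondrial folate enzyme ALDH1L2 (0.14 ± 0.07) and the cationic amino acid transporter SLC7A3 (ENSDARG00000020645, -0.01 ± 0.06). The mitochondrial protease LONP1 (0.06 ± 0.07), the lysosomal protease ctsla (0.10 ± 0.05), the lysosomal transporter SPNS1 (0.15 ± 0.06), EPAS1 and the arrestin-domain gene ARRDC3 (ENSDARG00000036028, -0.05 ± 0.06) made up the rest with MT1X.

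The 4 genes called lower at 800 ppb were all below 0 at 200 ppb, and 2 were lower in all 3 pairs. They were selenop, the pyruvate carboxylase gene PC (ENSDARG00000051939, -0.05 ± 0.05), the apolipoprotein apoa4a (-0.11 ± 0.08) and si:dkey-52d15.3 (-0.01 ± 0.06). Among all 9421 genes below 0 at 800 ppb, 4942 were below 0 at 200 ppb and 1235 were lower in all 3 pairs. The 73.7% depends on which genes are taken: it was 48.6% of the 37 genes that DESeq2 called higher at 800 ppb, and stayed at 73.7% with median-of-ratios scaling. Leaving out 1 library leaves 1 dose with a single sample, which is then assumed to vary like the other dose. The share was lower in 3 such fits and nearly unchanged without 800 ppb replicate 1, and these fits carry little weight. With limma-voom on all 4 libraries the share was 68.4% of the 19 genes called higher at 800 ppb.

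**Figure D4:**
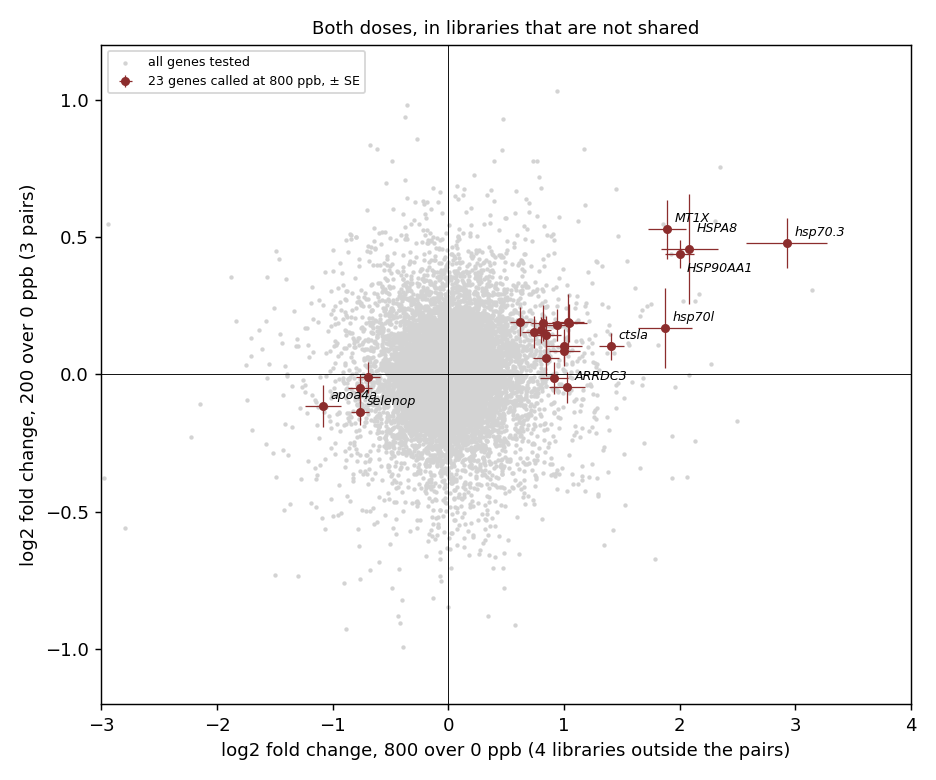
Log2 fold change at 200 over 0 ppb in the 3 pairs (vertical) against that at 800 over 0 ppb in the 4 libraries outside the pairs (horizontal), with all 18887 genes in grey except 3 beyond the axes, and the 23 genes called at 800 ppb in red with SEs. Of the 19 red points right of 0, 17 lie above 0 on the vertical axis, with HSP90AA1 at 0.44 against 2.0 and hsp70.3 at 0.48 against 2.93.

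Of the 153 consistent genes on the higher side, 90 (58.8%) had a log2 fold change above 0 at 800 ppb, against 50.1% of all genes tested. Of the 142 on the lower side, 58 (40.8%) were below 0 at 800 ppb, against 49.9% of all genes. OPN1SW was not among those 58, with a log2 fold change of 0.48 ± 0.39 at 800 ppb. Among the named genes, 7 of the 12 on the higher side were above 0 at 800 ppb and 7 of the 12 on the lower side were below, and HSP90AA1 and hsp70.3 were the 2 called there.

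For the ATF4 list 50 of 53 genes were above 0 at 800 ppb, with a median of 0.39, against 32 of 53 at 200 ppb, and for HSP70 chaperones and partners 22 of 27, against 19 of 27. HSP90 chaperones and partners had 18 of 25 above 0 at 800 ppb and 22 of 25 at 200 ppb, though their median was 0.21 at 800 ppb and 0.08 at 200 ppb. The median of the HSP70 list was 0.16 at 800 ppb and 0.03 at 200 ppb. Cytosolic ribosomal proteins were on opposite sides, with 67 of 81 genes above 0 at 800 ppb and 6 of 81 at 200 ppb. The photoreceptor list had 23 of 36 above 0 at 800 ppb, against 8 of 36 at 200 ppb, and the cartilage and bone list 13 of 44, against 10 of 44. The difference between the doses was not tested, as the doses were compared with their own untreated libraries, which came from different sets.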

How the data were processed

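Whole-embryo RNA was sequenced in 10 libraries, of which 6 form the pairs. FastQC, cutadapt, STAR and edgeR are listed without versions in the submitters' processing notes, which also name GRCz11. How reads were counted, on which annotation and with what strand setting is not given in the sources used here, so reads of genes overlapping on opposite strands may be mixed. Per the labels and the values, the authors deposited raw counts, 1 file a library with a row for every Ensembl gene, and all tests used them. The 2 libraries of pair 1 listed 463 features more (0.342% of reads at 200 ppb and 0.339% at 0 ppb), which were left out. The authors also deposited a table of log2 CPM values, from which whole reads were recovered for 100% of low values within 0.05 reads; they equal the count files in pair 1 only and served as an alternative.

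Counts were fitted with edgeR 4.0.16 (R 4.3.3; limma 3.58.1, DESeq2 1.42.0): TMM scaling, replicate as a block and dose, quasi-likelihood F-test, two-sided, called at an adjusted p under 0.05. The fit left 2 residual degrees of freedom, with dispersions shrunk across genes. SE is the log2 fold change divided by the root of F. Pair ratios use log2 CPM with a prior count of 2. Deviations from the dose mean correlated at 0.941, 0.757 and 0.851 between same-numbered libraries in pairs 1, 2 and 3. The libraries were paired by the numbers in the titles because of this likeness, so these values describe the pairing and do not test it. In pair 1 both libraries also share the hospital core, and site and pair cannot be told apart. The test was checked on simulated data.

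Of 2153 entries in the 46 gene lists, 1581 matched by symbol, 272 without a paralog suffix and 28 by another symbol; aliases were added after the files were read, from names alone. The members and lists were chosen with earlier results of these data known. Named are every called gene, the 12 consistent genes with a proper symbol and the smallest p on each side, the 3 genes with the smallest p of each list described, the genes called at 800 ppb, and others said to be chosen after their values were seen. Tables and plots used Python 3.11.15, pandas 2.3.3 and matplotlib 3.10.9. A planned search of promoter sequences was not run, and no coordinates are given.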

Additional observations from a re-analysis of the deposited data

Results flagged for a closer look

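Among the 5 libraries at 0 ppb, all scaled together, replicate 1 stood apart for HSPA4 (ENSDARG00000004754), 1 of the 23 genes called in either comparison. It had 64.5 CPM, the lowest value, with the nearest library at 96.5 CPM and the highest at 107 CPM, so that the gap took up 0.753 of the whole range. The rule flags about 1 in 20 groups of samples that vary alike, and 1 of the 23 genes checked was flagged. These libraries came from different sites, so that rate need not hold here. This library came from the hospital core and the other 4 from the provider, and the part of the site in this value was not tested. Its partner at 200 ppb was also the lowest of its dose.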

How the results depend on the processing

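The paired fit called 1 gene at 200 ppb. Without the replicate block edgeR called 0 genes (3 at an unadjusted p under 0.05), with a site term over all 10 libraries 0 (95), and with 4 blocks over all 10 libraries 0 (201). Median-of-ratios scaling, filterByExpr, DESeq2 and limma-voom each called 2 with the block, and no filter on low counts called 10. Those 10 took in hsp90aa1.1, hsp70.3, MT1X, OPN1SW, CRYBB1 and HBE1 ENSDARG00000045143, none of which the main fit called. Leaving out 1 pair gave 1 to 138 calls, the highest without pair 2. HSP90AA1 had a log2 fold change of 0.43 without the block and 0.52 with the site term, and was not called in either. Genes shifted the same way in all 3 pairs numbered 1034 at a minimum shift of 0.1, 105 at 0.3 and 62 with a mean of at least 5 CPM, against 295; with 1 pair left out, 861 to 1667 shifted the same way in the other two. At 800 ppb DESeq2 called 48 genes and leaving out 1 library gave 21 to 150, against 23, with the lone sample of a dose assumed to vary like the other dose.

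The cause of the turned signs that follow was not tested. With the site term and no replicate block, the log2 fold change was 0.175 for hspb9, -0.0149 for fth1a, 0.0882 for selenow1, -0.000426 for PFKFB4, 0.0402 for RPS12, 0.0614 for RPS19, 0.155 for cryba1b, -0.0540 for crygm2d4, 0.0852 for PC, -0.0315 for HSP90AB1, -0.0119 for HSP90B1, and 0.180 and 0.177 for the HBE1 genes ENSDARG00000113599 and ENSDARG00000087390. HSPA8 ENSDARG00000068992 had 0.00156 with the site term, 0.000571 without the block, 0.00183 with median-of-ratios scaling and 0.00174 with DESeq2. Reads recovered from the log2 table gave -0.0237 for gsta.1 and 0.792 for HBE1 ENSDARG00000115405. Leaving out 1 pair gave -0.000140 to 0.404 for hsp70l, -0.0295 to 0.0125 for si:dkey-52d15.3, -0.00297 to 0.0518 for HSP90AB1, -0.0160 to 0.0107 for HSPA8 ENSDARG00000068992, -0.122 to 0.00215 for HBE1 ENSDARG00000113599 and -0.0729 to 0.0104 for HBE1 ENSDARG00000087390. Of 1312 values of 102 named genes under alternatives, 1255 kept direction and side of the threshold and 29 passed it where the main value had not, many of them without pair 2. Of the list medians under alternatives, 502 moved by less than the spread between pairs and 50 by more. With 3 pairs and 2 residual degrees of freedom, shifts of the size of the median SE, 0.106, cannot be told from none, and genes of a few CPM rest on few reads.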
